A study of Mus musculus with 4 samples.

Results

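Lysosomal enzymes, lysosomal membrane proteins and the transcription factors that drive lysosome genes were followed in sorted alveolar macrophages, the macrophages of the lung airspaces. The set was a list of 35 named genes, grouped by function and drawn up with earlier results of these arrays known: 12 glycosidases, 5 sulfatases, 6 other hydrolases, 2 sphingolipid activator proteins, 7 membrane proteins and the 3 factors Tfeb, Tfe3 and Mitf. Cathepsins were not part of it. Of these, 33 were measured by probe sets that name 1 gene only, among 18782 genes on the arrays measured that way. The remaining 2 members, the sulfatase gene Sgsh and the acid phosphatase gene Acp2, lay on probe sets that also carry the name of a second gene, and were not analysed here. Arsb and Mitf each had 2 probe sets, and the one with the higher mean over the 4 arrays was used.

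Macrophages came from adult mice of C57BL/6 background, and both groups carried floxed alleles of Pparg, the gene of the lipid-sensing nuclear receptor PPARγ. Mice with the floxed alleles alone are called WT, and mice that also carried a Cre recombinase under the CD11c promoter are called KO. Each group had 2 biological replicates, and each replicate was 1 Affymetrix array of cells pooled from 2 mice. Cells were sorted as viable, CD45-positive, CD11c-high, autofluorescent and Siglec-F-positive, taken as CD11b-low from WT and as CD11b-high from KO mice, and the labels call the WT cells mature and the KO cells arrested at an immature stage. The CD11c promoter is active in other CD11c-bearing cells of the mouse too, so deletion need not be limited to this cell type. The question asked by the design is what PPARγ controls in these cells.

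Pparg itself read 9.69 and 9.75 in WT and 9.59 and 9.73 in KO on the log2 scale, values that overlap. Whether its probes cover the floxed exons was not known, so this does not check the genotype, and every direction below is that of the KO-labelled arrays relative to the WT-labelled ones. The alveolar macrophage marker Siglecf was lower in KO (6.01 and 6.48 against 9.59 and 9.44). Of 11 measured markers of this cell type 5 were lower and 0 higher, with list means of 9.30 and 8.65 in WT and 6.15 and 6.31 in KO. The markers did not move together. Krt79, Fabp1, Cidec and Epcam fell by 4.37 to 6.19. The other 6 did not pass: Marco (-2.62) and Fabp4 (-2.07) differed widely, but Chil3 (0.04), Plet1 (-0.045), Itgax (0.24) and Car4 (-0.315) differed little. Among 9 markers of interstitial macrophages 5 rose and 1 fell, with list means of 3.55 and 3.61 in WT and 5.73 and 5.58 in KO, while Cd163, Folr2 and Tmem119 lay below the array median of 3.14 on every array. Of 5 neutrophil markers 2 rose and 1 fell, with list means of 4.25 and 4.68 in WT and 5.46 and 5.18 in KO, and of 5 dendritic cell markers 1 rose, with 3.11 and 3.16 against 3.49 and 4.0. The means for eosinophil, lymphocyte, monocyte, epithelial and endothelial or stromal markers lay between 1.82 and 4.57 on every array. Their WT and KO ranges overlapped except for the monocyte list (4.05 and 4.12 against 4.19 and 4.21, with 3 of 5 higher and 1 lower) and, by a narrow gap, the lymphocyte list (2.92 and 2.60 against 2.93 and 3.05, with 0 of 4 past the test). The monocyte markers F13a1 and Vcan and the interstitial marker Lyve1, each called higher, stayed at 3.50 or below on every array. The remaining monocyte marker called higher, Ccr2, read 4.49 and 5.58 in WT and 7.03 and 6.70 in KO. Treml4, the monocyte marker called lower, differed by -2.39. Of 5 epithelial markers Ager alone passed, with a fall of 1.32 ± 0.12 (SE; limma adjusted p = 0.00115). The part of any of these shifts in the lysosomal values was not tested. In sorted cells measured in bulk, a change in the makeup of the sort and a change of RNA per cell cannot be told apart.

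Lysosomes are the acidic compartments in which cells take apart material that they engulf or recycle, and alveolar macrophages use them on surfactant, dust and microbes. Soluble hydrolases are made in the endoplasmic reticulum, tagged with mannose 6-phosphate and sorted to the lysosome, where each removes 1 kind of bond. Glycosidases remove sugars, sulfatases remove sulfate groups, and activator proteins lift lipids out of membranes for the enzymes. TFEB, TFE3 and MITF are helix-loop-helix factors of the MiT/TFE family. They bind a short element built on CACGTG in the promoters of many lysosome genes, and the kinase complex mTORC1 holds them in the cytoplasm when nutrients are plentiful.

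All members that passed the main test were genes of hydrolases, but most of the members are such genes. With an intensity trend in the variance model, the calls added included Gm2a, Psap and Lamp2, which are not hydrolase genes. Of the 33 members, 8 were higher in KO, 1 was lower and 24 did not pass the test, an adjusted p under 0.05 with limma over all genes. The 8 that rose were the glycosidase genes Naglu, Galc, Glb1, Gaa and Gla and the genes Lgmn, Acp5 and Tpp1 of other hydrolases, and the 1 that fell was the fucosidase gene Fuca1. Over all genes 14.3% passed, 7.41% as higher and 6.86% as lower, against 27.3% of the members, 24.2% as higher. The median difference of the members was 0.18 on the log2 scale, KO minus WT, against -0.02 over all genes. Both KO arrays lay above both WT arrays for 23 members and below them for 4, where 25.3% and 30.0% of all genes did so.

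The background depends on which genes are counted. All members lay well above the array median, and among the brighter genes, those at or above the median of all gene means, 30.8% passed when they were tested alone. In that test 10 members passed, the additional one being the iduronidase gene Idua, so the share of members called was close to the share of bright genes called. The directions were less alike, since 14.9% of the bright genes were higher and 15.9% lower, whereas 9 of the 10 members were higher; that contrast was not tested. When KO replicate 1 or KO replicate 2 was left out, 5 members were higher, and 726 and 816 genes were higher overall. Fuca1 was past the test with none of the 4 arrays left out.

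**Figure D1:**
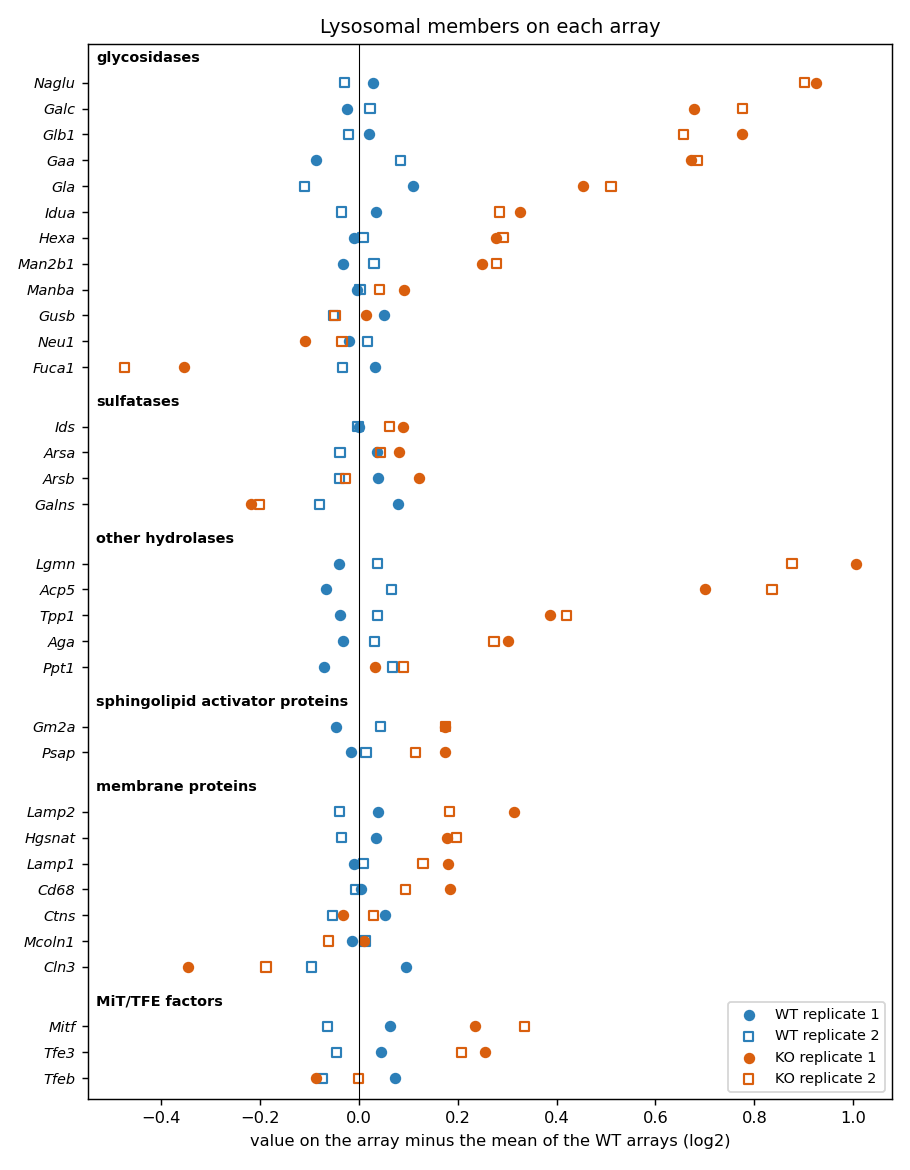
Value of each of the 33 members on each array minus the mean of the 2 WT arrays, in log2 units, ordered by class and by difference; circles are replicate 1, squares replicate 2, blue WT and orange KO. The KO points of Naglu and Lgmn lie farthest to the right, with Lgmn at 10.1 and 9.92 against a WT mean of 9.05, and the KO points of Fuca1 farthest to the left.

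Among the glycosidases, 5 of 12 rose, 1 fell and 6 did not pass, with a median difference of 0.30. The share called was 50.0%, against 14.3% of all genes and 23.8% of genes with a mean of 6 to 9.5 on the log2 scale. That contrast was not tested. Naglu encodes the enzyme that removes N-acetylglucosamine from heparan sulfate. It read 7.37 and 7.31 in WT and 8.26 and 8.24 in KO. The groups lay far apart relative to the gap within each, and the rise was 0.91 ± 0.09 (SE; limma adjusted p = 0.00187), or 1.88-fold. Galc, the galactosylceramidase that takes apart the main lipid of myelin, read 6.29 and 6.34 in WT and 6.99 and 7.09 in KO. Its rise was 0.73 ± 0.10 (adjusted p = 0.00519). Both genes passed with any 1 array left out.

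Glb1 encodes the lysosomal beta-galactosidase, which acts on ganglioside GM1 and on keratan sulfate. Its values were 7.06 and 7.02 in WT and 7.81 and 7.69 in KO, a rise of 0.72 ± 0.10 (adjusted p = 0.00591). The enzyme of Gaa, acid alpha-glucosidase, releases glucose from glycogen inside lysosomes. Gaa read 7.56 and 7.73 in WT and 8.31 and 8.33 in KO, a rise of 0.68 ± 0.11 (adjusted p = 0.00877). The WT arrays of Gaa were farther apart than the KO arrays, and the gene did not pass when either KO array was left out. Gla, the alpha-galactosidase of globotriaosylceramide, read 8.05 and 7.83 in WT and 8.40 and 8.45 in KO. Its rise of 0.48 ± 0.11 (adjusted p = 0.0390) still passed when WT replicate 1 was dropped, but not when any of the other 3 arrays was.

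Fuca1, the enzyme that removes fucose from glycoproteins, went the opposite way. It read 8.61 and 8.54 in WT and 8.22 and 8.10 in KO, a fall of 0.41 ± 0.10 (SE; limma adjusted p = 0.0442), the call closest to the threshold among the members. Idua, which acts on heparan and dermatan sulfate, read 6.73 and 6.66 in WT and 7.02 and 6.98 in KO and differed by 0.31 ± 0.10 (adjusted p = 0.0948). Hexa, the alpha subunit of beta-hexosaminidase, read 9.69 and 9.71 against 9.98 and 9.99 and differed by 0.28 ± 0.09 (adjusted p = 0.108). The KO arrays of these 2 genes and of the mannosidase gene Man2b1 (9.83 and 9.89 in WT, 10.11 and 10.14 in KO, a difference of 0.26) were all above the WT arrays without passing the test. That order was found in 25.3% of all genes. The other 3 glycosidases lay near 0, the mannosidase gene Manba at 0.07, the sialidase gene Neu1 at -0.07 and the glucuronidase gene Gusb at -0.02, with a 95% interval from -0.26 to 0.23 for Gusb.

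None of the 4 measured sulfatases passed the limma test, and 0 had an unadjusted p under 0.05. Sulfatases share an activating step by the enzyme of Sumf1, which differed by 0.16 ± 0.10 (adjusted p = 0.388). Galns, which acts on keratan sulfate, had both KO arrays below both WT arrays, as did 30.0% of all genes, and differed by -0.21 ± 0.10. Arsa, the enzyme of sulfatide breakdown, differed by 0.06, Arsb of dermatan sulfate breakdown by 0.05 and Ids of heparan and dermatan sulfate breakdown by 0.08. Their 95% intervals ran from -0.21 to 0.30, so a rise as large as that of Glb1 lies outside them. A pair of sulfatase genes that are no members did rise, Arsg by 1.16 ± 0.19 (adjusted p = 0.01) and Arsk by 0.40 ± 0.10 (adjusted p = 0.0408).

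Of the other hydrolases, 3 of 5 were higher and 0 lower, with a median difference of 0.40. Over all genes 14.3% passed the test, and 23.8% of genes with a mean of 6 to 9.5 on the log2 scale. A class of 5 genes is too small to rank against the glycosidases. Lgmn encodes legumain, a protease that cuts after asparagine and trims cathepsins. It read 9.01 and 9.08 in WT and 10.1 and 9.92 in KO, and its rise of 0.94 ± 0.10 (SE; limma adjusted p = 0.00229), or 1.92-fold, was the largest of any member. Acp5 encodes tartrate-resistant acid phosphatase, a classical enzyme of osteoclasts that macrophages also make. Its values were 8.79 and 8.93 in WT and 9.56 and 9.70 in KO, a rise of 0.77 ± 0.11 (adjusted p = 0.00604), or 1.70-fold. Lgmn and Acp5 passed with any 1 array left out.

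Tpp1, the peptidase that removes tripeptides from the ends of proteins, read 9.36 and 9.43 in WT and 9.78 and 9.82 in KO. The groups did not overlap and the rise was 0.40 ± 0.10 (adjusted p = 0.0403), but it was not past the test with any of the 4 arrays left out (adjusted p from 0.0865 to 0.167). Aga, which cuts the link between sugar and asparagine, read 6.42 and 6.48 in WT and 6.75 and 6.73 in KO, a difference of 0.29 ± 0.10 (adjusted p = 0.110). The thioesterase gene Ppt1 differed by 0.06 ± 0.10, and its groups overlapped.

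**Figure D2:**
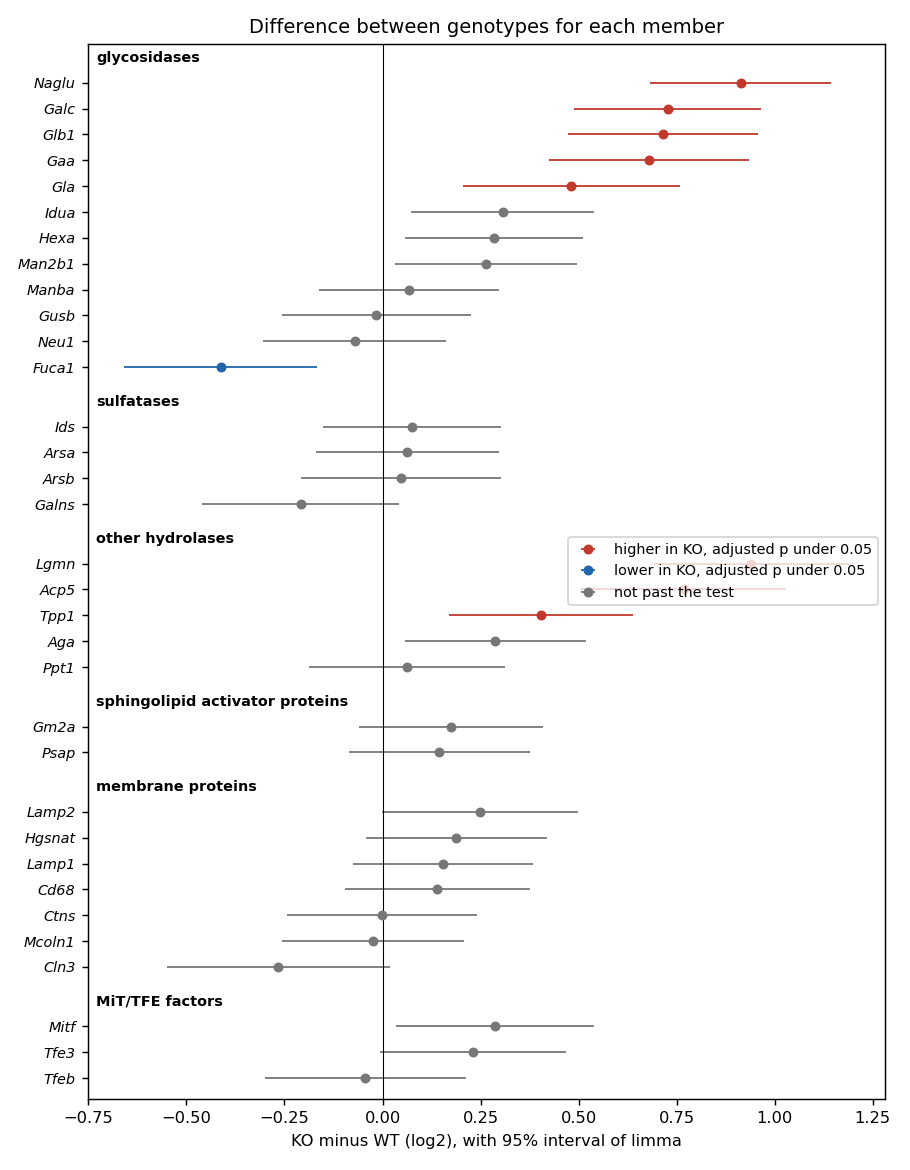
Difference KO minus WT of each member in log2 units, with the 95% interval of the limma fit as a bar; red points were higher and the blue point lower at an adjusted p under 0.05. Intervals of the 8 higher members lie wholly to the right of 0, and all 4 sulfatase intervals span 0. The intervals are not adjusted for the number of genes tested. Those of Hexa, Idua, Man2b1, Aga and Mitf also lie to the right of 0, though these genes did not pass.

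Neither activator protein gene and none of the 7 membrane protein genes passed the limma test, and 0 of these 9 had an unadjusted p under 0.05. With an intensity trend in the variance model, Psap, Gm2a and Lamp2 passed. Psap, the precursor of the saposins, differed by 0.15 ± 0.10, and Gm2a, the activator that presents ganglioside GM2 to beta-hexosaminidase, by 0.18 ± 0.10. The coat proteins of the lysosomal membrane were in the same range: Lamp1 differed by 0.16, Lamp2 by 0.25 (adjusted p = 0.188) and Cd68, a glycoprotein gene typical of macrophages, by 0.14. In these 5 genes both KO arrays lay above both WT arrays, an order that 25.3% of all genes showed. Psap (11.0 in WT), Cd68 (10.9), Lamp1 (10.3) and Gm2a (10.2) were also near the top of a scale that ended at 12.1, and whether the scale understates a rise there was not tested.

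Hgsnat, the membrane enzyme that acetylates heparan sulfate ends before Naglu acts, differed by 0.19 ± 0.10. Cln3, a membrane protein lost in juvenile Batten disease, read 8.90 and 8.71 in WT and 8.46 and 8.61 in KO, a difference of -0.27 ± 0.12 (adjusted p = 0.217). Its KO arrays were below its WT arrays, as in 30.0% of all genes but in contrast to most members. Mcoln1, the calcium channel TRPML1, differed by -0.03 and the cystine exporter gene Ctns by -0.001, with overlapping arrays and 95% intervals from -0.26 to 0.24.

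None of the 3 MiT/TFE factors passed the limma test, and Mitf alone had an unadjusted p under 0.05. Mitf read 7.87 and 7.75 in WT and 8.05 and 8.15 in KO, a difference of 0.29 ± 0.10 (SE; limma adjusted p = 0.140). Tfe3 read 7.52 and 7.43 against 7.73 and 7.69, a difference of 0.23 ± 0.10 (adjusted p = 0.198). Both genes had KO arrays above WT arrays without passing the test, and 25.3% of all genes had that order. The second probe set of Mitf, at 3.45 and 3.26 in WT and 3.42 and 3.98 in KO, overlapped between the groups. Tfeb read 6.60 and 6.45 in WT and 6.44 and 6.53 in KO, a difference of -0.04 ± 0.11 with a 95% interval from -0.30 to 0.21. These are RNA levels, and the activity of the factors depends on their place in the cell, which arrays do not measure.

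Grouped by what they break down, every set held genes that passed the test and genes that did not. Of 8 genes for glycosphingolipids, Galc, Glb1 and Gla rose and 0 fell, with a median of 0.23, and Neu1 was the only one with a negative difference. Of 6 measured genes for heparan and dermatan sulfate, Naglu alone rose, with a median of 0.13 and 0 lower. Of 5 genes listed for glycoproteins, with Glb1 and Hexa listed under other substrates only, Fuca1 fell and 0 rose, with a median of 0.07. The shares called in these sets, in the order given, were 37.5%, 16.7% and 20.0%. The share was 14.3% over all genes and 23.8% over genes with a mean of 6 to 9.5 on the log2 scale. These contrasts were not tested. For steps of the heparan sulfate chain, the differences were 0.91 (Naglu), 0.31 (Idua), 0.19 (Hgsnat), 0.08 (Ids) and -0.02 (Gusb). Of the last 4 none passed, although Idua had an unadjusted p of 0.0181 and passed when dim genes were left out.

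Promoter sequences of the members that rose are shown because the MiT/TFE factors read lysosome genes through CACGTG elements. RefSeq windows of GRCm38.p6, 250 bases before to 50 after a gene start, were found for 32 of the 35 members, and Aga, Galns and Hgsnat were not among them. TCACGTG was searched on both strands. It holds CACGTG within it, and 2 matches share 6 bases wherever TCACGTGA occurs. Of the 8 members that rose, Naglu, Glb1, Gaa, Gla and Lgmn had it (5 of 8). In each of these the match lies before the gene start, 74 bases for Naglu, 49 for Glb1, 141 for Gaa and 50 for Lgmn (in 1 of its 2 windows), while Gla has TCACGTGA at 228 and 195 bases. The stretches below are chr11:101069963-101070082, plus strand for Naglu, chr9:114400972-114401091, plus strand for Glb1, chr11:119267765-119267884, plus strand for Gaa, chrX:134601136-134601255, minus strand for Gla and chr12:102439080-102439199, minus strand for Lgmn, written 5′ to 3′ along the gene with the matches in capitals.
Naglu: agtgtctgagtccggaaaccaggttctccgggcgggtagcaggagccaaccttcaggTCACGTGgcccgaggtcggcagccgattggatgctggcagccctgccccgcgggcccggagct
Glb1: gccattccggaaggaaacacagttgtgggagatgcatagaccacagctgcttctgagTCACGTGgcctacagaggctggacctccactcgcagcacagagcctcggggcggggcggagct
Gaa: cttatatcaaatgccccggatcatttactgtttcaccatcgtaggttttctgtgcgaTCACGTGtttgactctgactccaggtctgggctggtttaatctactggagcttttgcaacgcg
Gla: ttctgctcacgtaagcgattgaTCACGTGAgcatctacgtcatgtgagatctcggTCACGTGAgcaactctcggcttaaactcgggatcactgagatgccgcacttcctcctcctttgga
Lgmn: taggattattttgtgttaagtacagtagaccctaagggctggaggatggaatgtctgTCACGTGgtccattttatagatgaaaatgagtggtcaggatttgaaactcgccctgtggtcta

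The letters were not limited to members that rose. Of the 21 measured members with a window that did not pass the test, 4 had TCACGTG, namely Mcoln1, Lamp1, Cln3 and Arsa, and Sgsh, which was not measured, had it too. The single member that fell, Fuca1, had no match in its window. Mcoln1 and Lamp1 are shown because they held more matches than most members and did not pass the test, at chr8:3500404-3500523, plus strand for Mcoln1 and chr8:13159065-13159184, plus strand for Lamp1.
Mcoln1: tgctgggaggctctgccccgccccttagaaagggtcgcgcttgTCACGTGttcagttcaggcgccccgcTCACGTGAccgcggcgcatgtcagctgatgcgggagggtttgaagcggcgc
Lamp1: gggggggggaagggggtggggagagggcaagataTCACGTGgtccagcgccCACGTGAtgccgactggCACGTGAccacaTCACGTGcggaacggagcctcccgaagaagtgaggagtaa

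Over all genes with a RefSeq window 4.29% held TCACGTG and 8.09% held CACGTG (3.77% and 7.15% of all windows, since a gene can have several), against 10 of 32 members (31.2%) for either. Among genes with a window, 6.48% of those higher in KO, 6.23% of those lower and 5.23% of those not past the test held TCACGTG. The letters were thus frequent in the lysosomal genes as a group and nearly as frequent in genes that fell as in genes that rose. A pair of AGGTCA copies with any 1 base between them, a strict form of the element bound by PPARγ with its partner RXR, was found in 0 member windows and in 0.0396% of all windows. A match describes the letters of the window and does not show binding.

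Other lysosome genes, taken from lists written by function, included larger changes than any member. Of 16 measured other hydrolases and cofactors, 9 rose, 1 fell and the other 6 did not pass, with a median of 0.40. Another 11 of the 27 genes listed were not measured by a probe set of 1 gene. The share called was 62.5%, against 14.3% of all genes and 23.8% of genes with a mean of 6 to 9.5 on the log2 scale. That contrast was not tested. Cpq, a carboxypeptidase gene, rose by 3.21 ± 0.11 (SE; limma adjusted p = 4.25e-05) from 2.07 and 1.85 in WT to 5.19 and 5.15 in KO. Its WT values lay below the array median of 3.14, and whether they are above background is not known, so the difference is best read as a lower bound. It was joined by the carboxypeptidase gene Scpep1 (0.995), the gamma-glutamyl hydrolase gene Ggh (0.74) and the acid sphingomyelinase gene Smpd1 (0.68). Pla2g15, the phospholipase of lysosomes that acts on surfactant lipids, was the gene that fell, by 0.39 ± 0.10 (adjusted p = 0.0490), and with 1 array left out 4 to 6 genes of this list were higher and 0 lower.

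Of 30 measured other membrane proteins, 10 rose, 1 fell and the other 19 did not pass, with a median of 0.31. The share called was 36.7%, against 14.3% of all genes and 23.8% of genes with a mean of 6 to 9.5. Slc11a1, the metal transporter NRAMP1 of phagosomes, read 4.53 and 4.47 in WT and 9.44 on both KO arrays, a rise of 4.94 ± 0.09 (adjusted p = 8.27e-06). The two-pore channel gene Tpcn1 rose by 2.38 ± 0.09, the tetraspanin gene Cd63 by 2.14 ± 0.16 and Mcoln2, a relative of Mcoln1, by 1.55 ± 0.10. Cd164, which encodes a sialomucin, fell by 0.79 ± 0.10. Cd164 and Pla2g15 were named after their values were seen, to complete counts of 1. With 1 array left out, 7 to 8 of these membrane genes were higher. Membrane genes among the members thus had no call while other membrane genes had 11, a contrast between 2 lists that was not tested.

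Genes of the proton pump, the cathepsins, enzyme sorting and autophagy had 1 of 18, 3 of 12, 3 of 14 and 2 of 24 past the test. Over all genes 14.3% passed, and 23.8% of genes with a mean of 6 to 9.5 on the log2 scale. The latter is the closer background, since the median WT means of these lists were 8.82, 9.44, 7.72 and 7.15. None of the 4 shares stood clearly above it. Among 18 V-ATPase genes, which acidify the lysosome, Atp6v1a rose by 0.47 ± 0.09 (adjusted p = 0.0219) and the other 17 did not pass, with a median of 0.05, and Atp6v1a was not past the test with any 1 array left out. Of 12 cathepsins 3 were higher and 0 lower: Ctsk (0.83), Ctsl (0.76) and Ctsh (0.42), with a median of 0.21 and only 1 called without KO replicate 1. In the sorting of enzymes, Sort1, the receptor sortilin, fell by 1.10 ± 0.13 (adjusted p = 0.00318) and Igf2r, the large mannose 6-phosphate receptor, rose by 1.86 ± 0.34 (adjusted p = 0.0158). The KO arrays of Igf2r were far apart, at 4.85 and 3.74, and the gene was near the bottom of the scale in WT (2.56 and 2.32). The adaptor gene Gga2 rose by 0.56 ± 0.12 but not with any 1 array left out, and the other 11 sorting genes did not pass. Of 24 autophagy genes Gabarapl1 (0.65) and Rab7 (0.39) were higher, 0 were lower and the median was -0.04, with 0 to 2 higher when 1 array was left out.

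**Figure D3:**
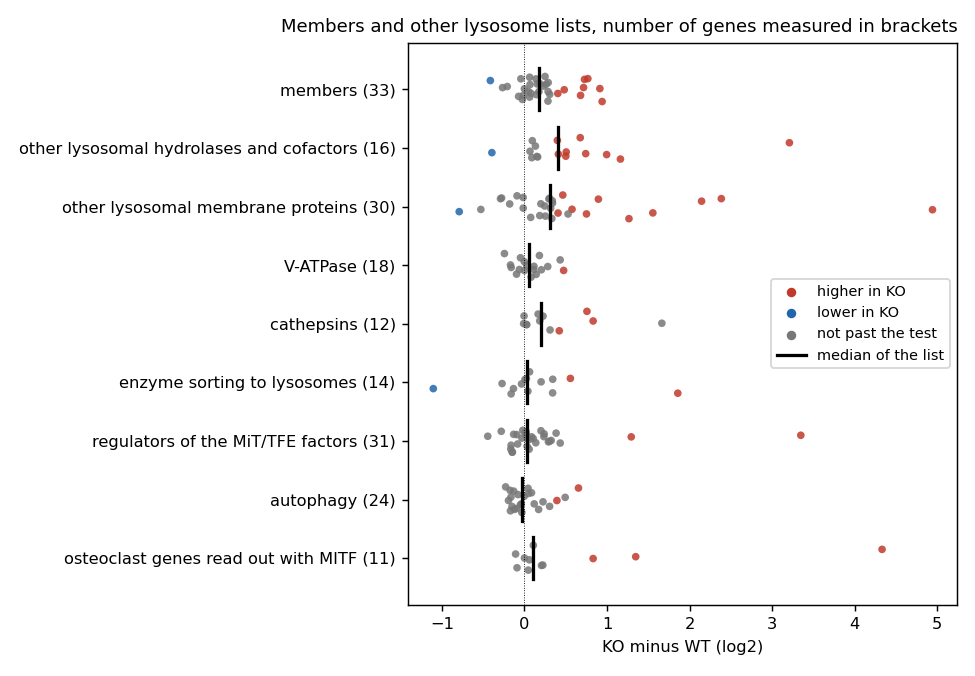
Difference KO minus WT in log2 units for each gene of the members and of the 8 other lists, with the list median as a black bar; points are spread vertically only to separate them. Medians run from -0.04 for autophagy to 0.40 for the other hydrolases and cofactors, and the highest point is Slc11a1 at 4.94.

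Of 31 regulators of the MiT/TFE factors 2 rose, 0 fell and the median difference was 0.03. The share that rose, 6.45%, was near the 7.41% of all genes that were higher in KO. Rragd encodes RagD, a GTPase that brings the factors to the lysosome for control by mTORC1. It read 2.31 and 2.14 in WT and 5.96 and 5.18 in KO, a rise of 3.35 ± 0.25 (SE; limma adjusted p = 5.95e-04), again from WT values below the array median and so best read as a lower bound. Fnip2, a partner of folliculin in the same control, rose by 1.29 ± 0.10 (adjusted p = 7.09e-04) from 6.92 and 6.78 to 8.17 and 8.12. The remaining 29, with Mtor (-0.03), Flcn (-0.09) and the fourth family member Tfec (0.09) among them, did not pass. When dim genes were left out 5 were higher and 1 lower, and with an intensity trend in the variance 6 and 1. A list of 11 osteoclast genes was added because Acp5 and Ctsk are read out with MITF in that cell. Of these, Dcstamp rose by 4.33 ± 0.10 (from 2.71 and 2.63 in WT, below the array median, with the same limit), Gpnmb by 1.35 ± 0.12 and Ctsk as above. The share that rose was 27.3%, against 7.41% of all genes, from 3 genes. Ctsk was a reason for adding the list and is counted in that share, so the share is not independent of the choice of list. None was lower, and the other 8 did not pass, among them Mmp9 (0.06), Itgb3 (-0.09) and Nfatc1 (0.05). The lists share Ctsk and Atp6v0d2 and are not independent.

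The differences of the 33 members ran from -0.41 to 0.94, so no member reached a 2-fold change. Among genes with a mean of 6 to 9.5 on the log2 scale, bounds chosen after the values were seen, 23.8% passed, and 7 of 23 members (30.4%) did. For genes at 9.5 or more the shares were 18.8% and 2 of 10 members (20.0%).

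**Figure D4:**
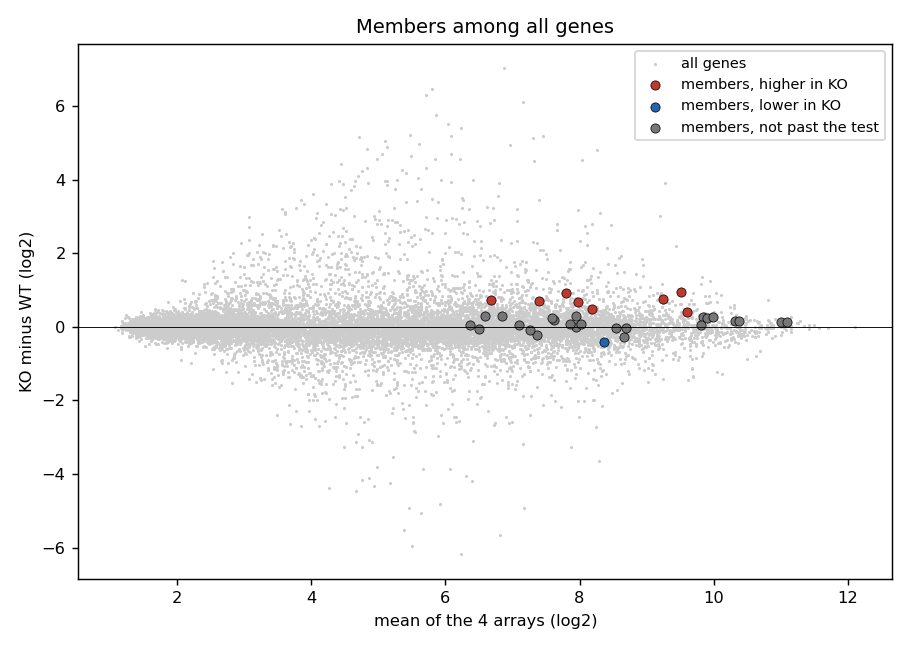
Difference KO minus WT against the mean of the 4 arrays, both in log2 units, for all 18782 genes (grey) and the 33 members (coloured by call). The members lie between -0.41 and 0.94 on the vertical axis, at a mean of 6 or more on the horizontal axis.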

How the data were processed

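RNA of sorted macrophages was hybridised to Affymetrix arrays, 2 per genotype. Per the submitters' processing notes, the deposited log2 values per probe set come from RMA under R 2.15.2. RMA corrects background and gives all arrays 1 distribution, so a shift of most transcripts would not be seen. The sources used here give neither its settings nor a genome build. Of 28371 probe sets, 21158 carried 1 gene symbol in the platform annotation, 1881 several and 5332 none, and 21128 of the first were found in the RefSeq gene table. The probe set with the highest mean represented a gene.

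The genotypes were compared by limma 3.58.1 (R 4.3.3), group as the only term, moderated variance (2 residual and 4.16 prior degrees of freedom), two-sided, Benjamini-Hochberg over 18782 genes. The number of arrays limits precision. The script was tested on simulated data. No label pairs the arrays by replicate number, and the correlation of their deviations was -0.05. With 2 arrays per group both numbers give the same value, so it cannot settle whether the arrays are paired. Replicate arrays within a group correlated at 0.995 and 0.996, arrays of different groups at 0.974 to 0.980.

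Members and lists were chosen with earlier results of these data known. Array values are given for members past the test, the 3 MiT/TFE factors and the 5 largest other differences. From the other lists up to 4 genes with the smallest p were named. Any other gene was picked with its value in view. Alternatives covered the replicate block, each array left out, normalization, dim genes, variance model and choice of probe set. Intervals are 95%.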

Additional observations from a re-analysis of the deposited data

How the results depend on the processing

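The counts of members called depended on the number of arrays and on the variance model more than on normalization or probe set choice. With 1 array left out, 5 to 7 members were higher and 0 lower, 3 to 5 glycosidases were higher and 0 lower, 726 to 1227 genes were higher and 647 to 1057 lower, each called member being also among the 9. An intensity trend in limma gave 13 members higher, adding Gm2a, Hexa, Lamp2, Man2b1 and Psap (2 activator protein genes and 1 membrane protein gene). With the replicate block 6 members were higher and 0 lower (0 glycosidases lower), Gla, Tpp1 and Fuca1 being lost, although no label pairs the arrays. Without moderation an ordinary test called 0 members and 0 genes after adjustment in either direction (0 glycosidases, 0 other hydrolases), with 16 members higher and 1 lower, and 1739 genes higher and 1896 lower, at an unadjusted p under 0.05. Quantile normalization lost Tpp1. The robust prior variance, the mean of probe sets and the test of all probe sets kept the same 9 calls. Signs changed only for differences near 0 and with 1 array left out: Gusb ran from -0.0665 to 0.0345, Arsb from -0.0265 to 0.1215, Ppt1 from -0.0065 to 0.1315, Mcoln1 from -0.06 to 0.01, Ctns from -0.054 to 0.052 and Tfeb from -0.117 to 0.03. The cause of these changes was not tested.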
